A study of Homo sapiens with 16 samples.

Results

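FKBP5 and the 4 TSC22D genes (TSC22D1, TSC22D2, TSC22D3 and TSC22D4) were followed across 4 treatments of HEK293 cells, a human embryonic kidney line. All probe sets annotated to 1 of these symbols alone were taken, which gave 22 of the 44988 single-gene probe sets on the array. Of the 22, 17 were bright enough to test, which meant reaching the 40th percentile of all values on the array in 4 or more of the 16 arrays. All 5 genes were therefore among the 12495 genes tested, each through its probe set with the highest mean signal. The cells of every group, vehicle included, had been transfected for 24 h with a mineralocorticoid receptor plasmid at 500 ng per well. They were then treated for 4 h with 100 nM of the mineralocorticoid deoxycorticosterone acetate (DOC) plus 10 nM phorbol 12-myristate 13-acetate (PMA, which activates protein kinase C), with 10 nM PMA, with 100 nM DOC, or with vehicle. Each group held 4 arrays, labelled as biological replicates. Since every group carried the plasmid, responses through its receptor and through the cells' own receptors cannot be told apart. In a bulk culture, fewer responding cells and less RNA per cell cannot be told apart either.

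FKBP5 encodes FKBP51, an immunophilin that joins the HSP90 complex around steroid receptors and lowers the hormone binding of the glucocorticoid receptor. Its gene is induced by corticosteroids in many tissues, which closes a short negative feedback loop on the receptor. TSC22D3 encodes GILZ, a leucine zipper protein that is induced by glucocorticoids and, in kidney cells, by aldosterone, and that binds and restrains transcription factors such as AP-1 and NF-kB. TSC22D1, first described as a transcript induced by transforming growth factor beta, TSC22D2 and TSC22D4 share the TSC box and leucine zipper of this family. PMA induces AP-1 factors, dimers of the FOS and JUN families.

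To show the DNA in front of these genes, the 250 bases before annotated starts were read from RefSeq promoter sequences (GRCh38.p14), which held 12 windows for 4 of the 5 genes. They were 2 for FKBP5, 5 for TSC22D1, 4 for TSC22D3 and 1 for TSC22D4, with none for TSC22D2. Both strands were searched for the corticosteroid receptor hexamer AGAACA, for a full palindrome of this hexamer and its reverse complement around a spacer of 3 bases, and for the AP-1 site TGACTCA. The hexamer was present in 1 of the 12 windows and in 12.4% of 35116 windows over all genes. For the AP-1 site the numbers were 1 of 12 windows and 4.20% of all windows. The full palindrome was in 0 of the 12 and in 0.00285% of all. Both matches lay in the same TSC22D1 window, on the reverse strand, so that they read TGTTCT from base -94 and TGAGTCA from base -77 relative to the start. A match is a description of the letters, and a window without one says only that these letters are not in it. Shown 5′ to 3′ are that window and 1 window each of the 2 genes that rose with DOC, with motif matches in capitals.
TSC22D1, chr13:44474342-44474591, minus strand: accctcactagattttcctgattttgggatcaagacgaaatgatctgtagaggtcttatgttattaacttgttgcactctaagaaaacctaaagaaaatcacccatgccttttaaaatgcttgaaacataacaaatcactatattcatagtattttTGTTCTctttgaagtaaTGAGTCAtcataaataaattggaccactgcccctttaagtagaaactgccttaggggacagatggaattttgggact
FKBP5, chr6:35688916-35689165, minus strand: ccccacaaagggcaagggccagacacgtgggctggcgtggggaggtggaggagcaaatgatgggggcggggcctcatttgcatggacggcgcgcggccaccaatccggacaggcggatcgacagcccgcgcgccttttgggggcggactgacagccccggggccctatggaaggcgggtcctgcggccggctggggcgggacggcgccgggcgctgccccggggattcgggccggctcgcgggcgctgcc
TSC22D3, chrX:107717063-107717312, minus strand: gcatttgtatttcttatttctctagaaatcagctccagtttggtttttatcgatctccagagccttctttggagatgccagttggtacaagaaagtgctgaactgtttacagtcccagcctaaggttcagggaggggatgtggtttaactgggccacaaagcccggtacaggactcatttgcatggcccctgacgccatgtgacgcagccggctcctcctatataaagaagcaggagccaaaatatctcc

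Values were log2 RMA signals, in which 1 unit is a 2-fold difference. Array medians lay between 4.91 and 4.96, and arrays of 1 group correlated at 0.991 to 0.997. Differences were tested with limma on all 16 arrays. Differences with an adjusted p under 0.05 (Benjamini-Hochberg, across the whole table) were called, or passed. The interval given with a difference is its 95% confidence interval. The HEK293 markers NEFL, NEFM and INA were above the array median on all 16 arrays and PAX2 on 3, and NEFM averaged 9.53 in DOC plus PMA, 9.60 in PMA, 7.07 in DOC and 7.09 in vehicle. None of 4 leukocyte, 5 endothelial and 5 fibroblast markers was above the median on all arrays, although CORO1A was on 7 and TIE1 on 3. The glucocorticoid receptor NR3C1 lay at 8.64 to 9.08 in DOC plus PMA, 8.83 to 9.37 in PMA, 8.68 to 9.07 in DOC and 8.92 to 9.09 in vehicle. The mineralocorticoid receptor NR3C2 lay at 6.88 to 7.28 in DOC plus PMA, 6.99 to 7.51 in PMA, 7.34 to 7.43 in DOC and 7.24 to 7.51 in vehicle. It fell in DOC plus PMA against vehicle by 0.41 (adjusted p = 0.00413 by limma) and against DOC by 0.36 (adjusted p = 0.00993 by limma). Neither receptor passed in DOC or in PMA against vehicle. NR3C2 was read through 1 of its 2 probe sets, as the other, with group means of 2.99 to 3.34, was under the filter. Whether the set used reads the plasmid's transcript was not checked. The part of these shifts in the results below was not tested.

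Dim and bright probe sets of the same gene could deviate unequally from the other arrays of their group. On 3 arrays of 16 the bright sets deviated furthest upward against the dim ones, in the median over genes. These were DOC plus PMA replicate 2, PMA replicate 2 and DOC replicate 1, called the deviating arrays below. Over the 7495 genes with several tested probe sets, the median deviation of the brightest minus that of the dimmest was 0.0849 in DOC plus PMA replicate 2, 0.192 in PMA replicate 2 and 0.137 in DOC replicate 1. It lay between -0.0892 and 0.0407 in the other 13 arrays. PMA replicates 1 and 3 (both -0.0892) thus deviated by more than DOC plus PMA replicate 2 in size, in the opposite direction. Its cause was not tested, and results that rest on these arrays are given with and without them.

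**Figure D1:**
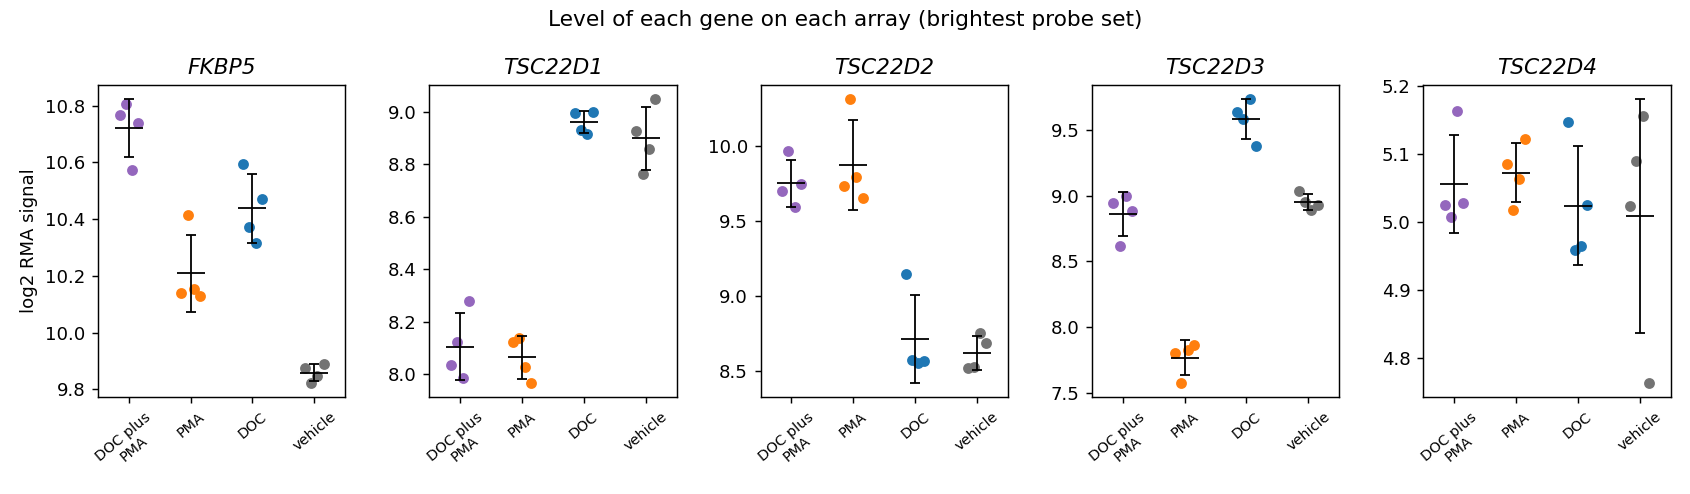
log2 RMA signal of each gene (its brightest tested probe set) on the 16 arrays, by group, with points for arrays, a bar for the mean and whiskers for 1 SD (n = 4). FKBP5 is lowest in the vehicle arrays, TSC22D3 is lowest in the PMA arrays and highest in the DOC arrays, and the vertical scales differ between panels.

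DOC raised 2 of the 5 genes, FKBP5 and TSC22D3, with and without PMA. In DOC against vehicle these were 2 of 5 genes higher and 0 lower, where 0.120% of all genes tested passed. In DOC plus PMA against PMA they were again 2 of 5 higher and 0 lower, where 0.384% of all genes passed. The mean of both DOC effects, called the DOC main effect here, also passed for these 2, with a background of 0.432%. PMA raised FKBP5 and TSC22D2 and lowered TSC22D1 and TSC22D3, which is 4 of 5 genes, but 47.0% of all genes passed in PMA against vehicle. With both agents against vehicle 2 genes were higher and 1 lower (background 43.8%), and in DOC plus PMA against DOC 2 were higher and 2 lower (background 42.6%). With so many genes passing wherever PMA was compared, those counts are not read as a property of the 5 genes. The comparisons share arrays, so that a count in one is not independent of the next. The 5 genes were chosen with earlier results of these data known, so the DOC counts are no test of them against all genes.

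FKBP5 was read at 10.77, 10.81, 10.57 and 10.74 in DOC plus PMA, at 10.14, 10.41, 10.15 and 10.13 in PMA, at 10.59, 10.37, 10.32 and 10.47 in DOC, and at 9.88, 9.82, 9.85 and 9.89 in vehicle. All 4 DOC arrays and all 4 PMA arrays were above all 4 vehicle arrays, and all 4 DOC plus PMA arrays were above all 4 PMA arrays. The group means were 10.72 ± 0.10 in DOC plus PMA, 10.21 ± 0.14 in PMA, 10.44 ± 0.12 in DOC and 9.86 ± 0.03 in vehicle (SD, n = 4 each). In the order of the means, PMA and DOC overlapped, as did DOC and DOC plus PMA, while vehicle and PMA did not.

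DOC raised FKBP5 1.49-fold over vehicle, a log2 difference of 0.58 ± 0.08 (SE; adjusted p = 0.00121 by limma). On top of PMA the DOC difference was 0.51 ± 0.08 (adjusted p = 0.00211 by limma). The 2 DOC differences were not told apart, with an interaction of -0.07 and an interval of -0.30 to 0.16. PMA alone raised FKBP5 by 0.35 ± 0.08 (adjusted p = 0.00121 by limma) and by 0.28 on top of DOC (adjusted p = 0.00659 by limma), where 3 of 4 DOC plus PMA arrays were above all DOC arrays. Both agents together gave 1.82-fold the vehicle level, a log2 difference of 0.86 (adjusted p = 7.52e-08 by limma). FKBP5 thus stood highest where both agents were present.

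TSC22D3 was read at 8.94, 8.62, 9.00 and 8.89 in DOC plus PMA, at 7.80, 7.57, 7.83 and 7.86 in PMA, at 9.64, 9.58, 9.73 and 9.38 in DOC, and at 9.03, 8.95, 8.89 and 8.93 in vehicle. All DOC arrays were above, and all PMA arrays below, every vehicle array, while the DOC plus PMA arrays overlapped with vehicle. The means were 8.86 ± 0.17 in DOC plus PMA, 7.77 ± 0.13 in PMA, 9.58 ± 0.15 in DOC and 8.95 ± 0.06 in vehicle (SD, n = 4 each).

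PMA lowered TSC22D3 to 0.440-fold the vehicle level, a log2 difference of -1.18 ± 0.09 (SE; adjusted p = 9.15e-09 by limma). DOC raised it by 0.63 ± 0.09 over vehicle (1.55-fold, adjusted p = 0.00251 by limma). With the mean of its 3 probe sets in place of the brightest, the DOC difference was 0.65 and did not pass (adjusted p = 0.0608 by limma). In cells that also received PMA, DOC raised it 2.14-fold, by 1.10 ± 0.09 (adjusted p = 9.33e-07 by limma). With both agents TSC22D3 differed from vehicle by -0.09 (interval -0.28 to 0.10, adjusted p = 0.464 by limma), and from DOC alone by -0.72 (adjusted p = 4.79e-06 by limma). The steroid and the phorbol ester thus moved GILZ mRNA in opposite directions, and the combination was not told apart from vehicle.

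The DOC difference of TSC22D3 was larger with PMA than without by 0.46 ± 0.13 (interval 0.19 to 0.73, unadjusted p = 0.00225 by limma). This interaction did not pass over all genes (adjusted p = 0.806). In the other 2 TSC22D3 probe sets it was 0.31 (interval -0.26 to 0.87) and 0.08 (interval -0.36 to 0.51). None of the 5 genes passed for the interaction, where 0.0880% of all genes did (11 genes, against 370 at an unadjusted p under 0.05). The 370 are themselves a share below 0.05 of the 12495 genes tested. The intervals for the other 4 genes all contained 0.

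**Figure D2:**
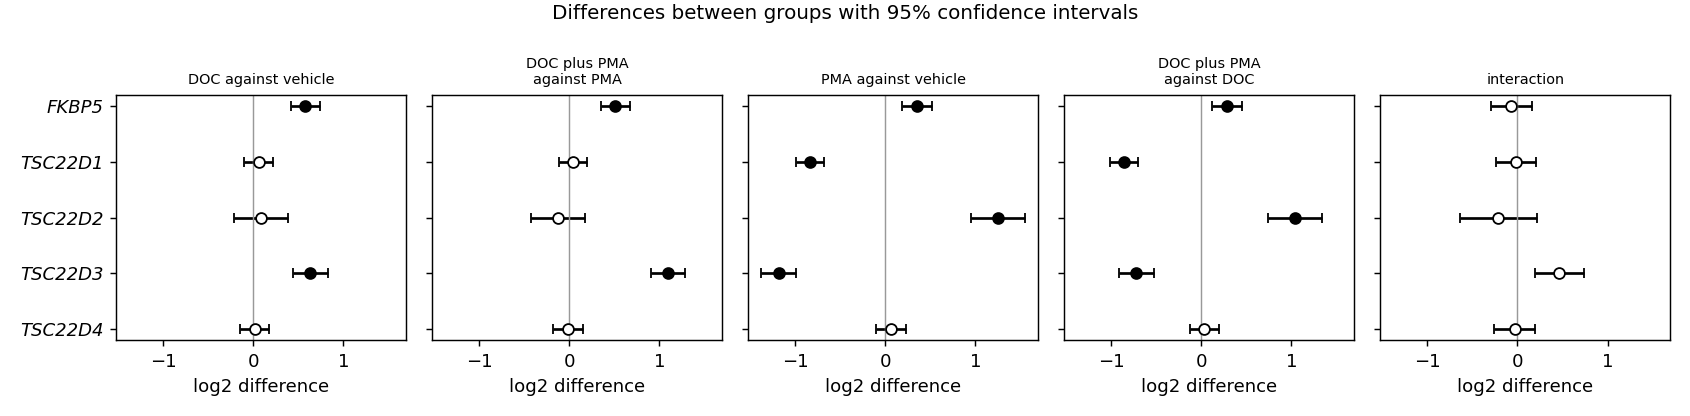
log2 difference of each gene (1 row per gene) in 5 comparisons, with 95% confidence intervals as bars and filled points where the adjusted p was under 0.05. FKBP5 (0.58 and 0.51) and TSC22D3 (0.63 and 1.10) are the filled points in the 2 DOC panels, and TSC22D3 is negative in both PMA panels.

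TSC22D1 was read at 8.03, 8.12, 7.98 and 8.28 in DOC plus PMA, at 8.12, 8.14, 8.03 and 7.97 in PMA, at 8.99, 8.93, 8.92 and 9.00 in DOC, and at 8.93, 8.76, 8.86 and 9.05 in vehicle. Every array with PMA was below every array without it. PMA lowered TSC22D1 to 0.560-fold the vehicle level, by -0.84 ± 0.07 in log2 (SE; adjusted p = 6.09e-08 by limma), and by -0.86 on top of DOC (adjusted p = 5.27e-08 by limma). DOC differed from vehicle by 0.06 (interval -0.10 to 0.22), and DOC plus PMA differed from PMA by 0.04 (interval -0.12 to 0.20). These intervals, of the brightest probe set, leave out the DOC differences seen for FKBP5 and TSC22D3, although the genes were not tested against each other. In the other tested set, 11758446_s_at, the interval on top of PMA was -0.15 to 0.56, which contains the 0.51 of FKBP5.

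TSC22D2 was read at 9.70, 9.96, 9.59 and 9.74 in DOC plus PMA, at 9.73, 10.31, 9.79 and 9.65 in PMA, at 9.15, 8.57, 8.55 and 8.57 in DOC, and at 8.52, 8.53, 8.75 and 8.68 in vehicle. Every array with PMA was above every array without it. PMA raised TSC22D2 2.38-fold over vehicle, by 1.25 ± 0.14 in log2 (SE; adjusted p = 1.23e-06 by limma), and 2.06-fold on top of DOC (1.04, adjusted p = 1.16e-05 by limma). With DOC it differed from vehicle by 0.09 (interval -0.21 to 0.39) and, on top of PMA, by -0.12 (interval -0.42 to 0.18). DOC replicate 1 alone was above all vehicle arrays, and without the 3 deviating arrays the DOC difference was -0.06 and the PMA difference 1.11.

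TSC22D4 had means of 5.06 ± 0.07 in DOC plus PMA, 5.07 ± 0.04 in PMA, 5.02 ± 0.09 in DOC and 5.01 ± 0.17 in vehicle (SD, n = 4 each), and the groups overlapped in every comparison. It passed in none of the 7 comparisons by limma. PMA differed from vehicle by 0.06 (interval -0.10 to 0.23) and DOC by 0.02 (interval -0.15 to 0.18). Its brightest probe set had a mean signal at the 51.1 percentile of all probe sets.

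The agreement between probe sets was then examined. Probe sequences were not used here, so how far the probe sets of a gene share probes was not checked. Of the 17 tested probe sets, 10 rose and 5 fell in PMA against vehicle, where 41.2% of the 28226 single-gene probe sets passed. In DOC against vehicle 4 rose and 0 fell, where 0.0744% of probe sets passed, and in DOC plus PMA against PMA it was also 4 and 0, with a background of 0.216%. In DOC plus PMA against DOC 10 rose and 5 fell, with a background of 36.8%. The 10 that rose in each PMA comparison included 11750085_a_at of TSC22D2, which passed the filter only through arrays with PMA. Probe sets of 1 gene share its RNA and the arrays, so they are no replicates of a treatment. These counts are no test against all probe sets either, since the genes were chosen with earlier results known.

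**Figure D3:**
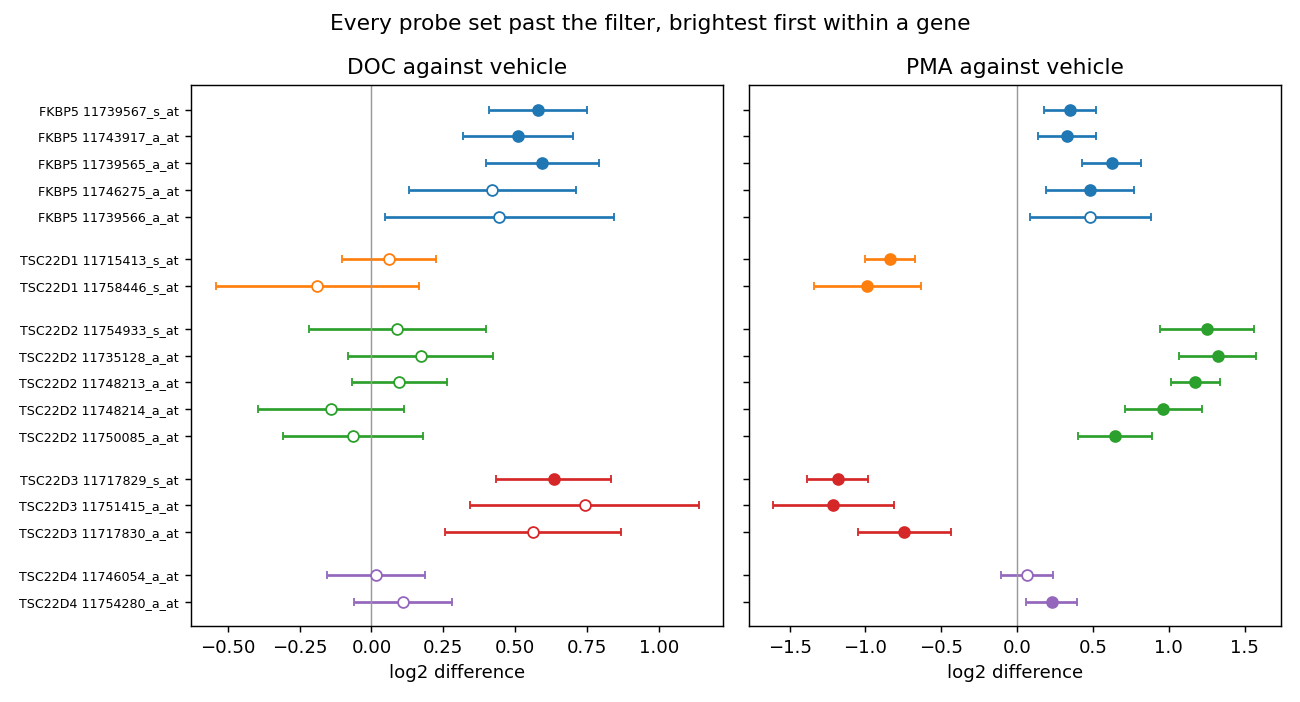
log2 difference of each of the 17 tested probe sets in DOC against vehicle and in PMA against vehicle, with 95% confidence intervals as bars, colours for genes and filled points where the adjusted p was under 0.05. All FKBP5 and TSC22D3 probe sets are right of 0 with DOC, and with PMA those of FKBP5 are right of 0 and those of TSC22D3 left of it.

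The 5 tested FKBP5 probe sets all had positive DOC differences, between 0.42 and 0.59, and 3 of them passed. All 5 were also positive with PMA, between 0.33 and 0.62, and 4 passed. The fifth, 11739566_a_at, differed by 0.48 with PMA (adjusted p = 0.0506 by limma) and was read at 6.11, 4.75, 5.59 and 5.60 in PMA, against 4.98, 5.25, 4.82 and 5.07 in vehicle. PMA replicate 2 was the lowest PMA array there and lay below all 4 vehicle arrays, while in the brightest set, 11739567_s_at, the same array was the highest of its group. Without PMA replicate 2 all 5 passed with PMA, with differences between 0.28 and 0.73. In DOC plus PMA against PMA all 5 were positive, between 0.44 and 0.62, with 2 passing, and without PMA replicate 2 they were between 0.37 and 0.58 with 1 passing. The correlation between pairs of these probe sets over the 16 arrays ranged from 0.658 to 0.970.

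The 3 TSC22D3 probe sets fell with PMA by -0.74 to -1.21 and all passed, and all 3 fell in DOC plus PMA against DOC. With DOC all 3 were positive, between 0.56 and 0.74, and 1 passed. The set with the difference of 0.74, 11751415_a_at, was read at 8.48, 8.64, 8.79 and 8.60 in DOC, against 8.13, 7.87, 7.74 and 7.80 in vehicle. Its groups did not overlap, but it did not pass (adjusted p = 0.646 by limma), with a standard error of 0.19 that took in arrays of all groups. Without the 3 deviating arrays, or without PMA replicate 2 alone, 2 of the 3 sets passed with DOC. In DOC plus PMA against PMA the differences were 0.64 to 1.10 with 2 passing, and the DOC main effect passed in all 3. Correlations between the sets were 0.945 to 0.967.

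Both tested TSC22D1 probe sets fell with PMA (-0.84 and -0.99), and all 5 of TSC22D2 rose (0.64 to 1.32). The TSC22D2 set with 0.64, 11750085_a_at, averaged 3.92 in vehicle and 3.86 in DOC, where the 40th percentile lay at 4.05 to 4.12. It reached that percentile in 9 arrays and passed the filter only through arrays with PMA, so its rise is no separate support. The 5 probe sets under the filter on dim signal were read from a limma fit of all single-gene probe sets, where 1 passed with PMA and 0 with DOC. The 1 was 11761804_at of TSC22D2 (0.34, adjusted p = 0.0102). The dim set of TSC22D1, 11715606_a_at, differed by -0.03 with PMA, unlike the 2 tested sets. Likewise FKBP5 11739084_at differed by -0.0044 with PMA and 0.03 with DOC, and it correlated at -0.04 to -0.18 with the tested FKBP5 sets. The 2 dim sets of TSC22D4 differed by -0.01 and 0.24 with PMA and did not pass. The DOC differences of TSC22D1 (0.06 and -0.19) and TSC22D2 (-0.14 to 0.17) had mixed signs and none passed. For TSC22D4 the probe sets did not give the same call: 11754280_a_at rose with PMA by 0.23 (adjusted p = 0.0313 by limma), while the brighter 11746054_a_at differed by 0.06 and did not pass. The set that rose, 11754280_a_at, was read at 4.76, 4.94, 4.87 and 4.82 in PMA, against 4.75, 4.56, 4.66 and 4.51 in vehicle, without overlap. Without PMA replicate 2 the difference of 11754280_a_at was 0.20 and did not pass (adjusted p = 0.0769 by limma), while without all 3 deviating arrays it was also 0.20 and passed (adjusted p = 0.0452 by limma). The 2 TSC22D4 sets correlated at 0.169 over the 16 arrays, against 0.805 for those of TSC22D1 and 0.803 to 0.989 for those of TSC22D2.

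**Figure D4:**
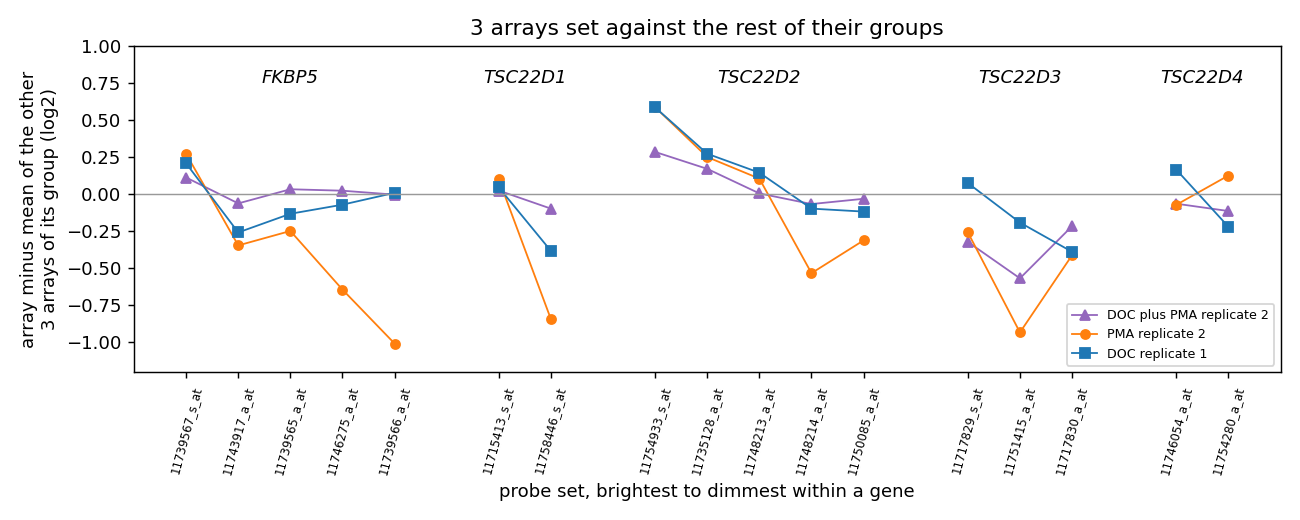
Signal of each tested probe set on DOC plus PMA replicate 2, PMA replicate 2 and DOC replicate 1, each minus the mean of the other 3 arrays of its group (log2). The brightest probe sets of FKBP5 and TSC22D2 are above 0 on all 3 arrays, and the dimmest of FKBP5 is at -1.01 on PMA replicate 2.

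On PMA replicate 2 the brightest FKBP5 set was 0.27 above the mean of the other PMA arrays and the other 4 tested sets deviated by -0.25 to -1.01. Of the 5 tested TSC22D2 sets there, the 3 brightest were above the mean (0.59, 0.25 and 0.10) and the 2 dimmest below it (-0.53 and -0.31). All 3 TSC22D3 sets were below it, the brightest included (-0.26, -0.93 and -0.41). In TSC22D4 the order was turned, with the brighter set at -0.07 and the dimmer at 0.13. Without the 3 deviating arrays FKBP5 differed by 0.28 with PMA, by 0.53 with DOC and by 0.55 with DOC on top of PMA. For TSC22D3 the same differences were -1.12, 0.62 and 1.11. No gene-level call for the 5 genes changed.

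By Pearson correlation over the 16 arrays with the other 12494 genes, the patterns most like FKBP5 were those of S1PR3 (0.945), ZNF189 (0.936) and PDK4 (0.934). S1PR3, a receptor for sphingosine 1-phosphate, averaged 7.66 in DOC plus PMA, 6.52 in PMA, 7.19 in DOC and 6.13 in vehicle, so it had the group order of FKBP5. Closest to TSC22D3 were UBE2QL1 (0.896), F12 (0.896) and BSPRY (0.895). F12, the gene of coagulation factor XII, averaged 6.33 in DOC plus PMA, 6.19 in PMA, 6.61 in DOC and 6.42 in vehicle. ZNF181 (0.992), SLC35A5 (0.990) and MTIF2 (0.986) were closest to TSC22D1, and FGFR1 (0.990), SMURF2 (0.990) and COQ10B (0.987) to TSC22D2. ADM5 (0.788), MOK (0.786) and SLC6A12 (0.781) were closest to TSC22D4. These values describe 4 groups on shared arrays, and carry no test.

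Among the genes that work with FKBP51 on steroid receptors, 15 of the 18 HSP90 co-chaperone and receptor genes listed were tested, and 0 passed with DOC (median difference -0.05, against 0.01 over all genes). By limma 386 of all 12495 genes had an unadjusted p under 0.05 in DOC against vehicle, a share below 0.05. With PMA 4 rose and 2 fell (median 0.09, against -0.04 over all genes), which is 6 of 15 where 47.0% of all genes passed, so the count is no result about the list. The risers were DNAJB1 (0.68), HSPA8 (0.43), DNAJA1 (0.29) and HSP90AB1 (0.17), which are HSP40 and HSP70 chaperones and an HSP90. STUB1, a ubiquitin ligase of the chaperone system, fell by 0.65, and BAG1, a nucleotide exchange factor of HSP70, fell by 0.33. Of 13 tested other FKBP family genes (15 listed), 0 passed with DOC. With PMA 6 of the 13 passed, about the 47.0% of all genes, and FKBP14 rose (0.25) and FKBP1B (-0.37), FKBP7 (-0.32), FKBP9 (-0.29), FKBP15 (-0.23) and FKBPL (-0.22) fell. The FKBP family median was -0.13 with PMA and 0.00 with DOC.

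Of 26 other genes known to be induced by corticosteroids, 24 were tested, and 5 rose and 0 fell in DOC against vehicle (median 0.28, against 0.01 over all genes), where 0.120% of all genes passed. They were PDK4, a kinase that inhibits pyruvate dehydrogenase (1.92), SGK1, the kinase that keeps the epithelial sodium channel at the cell surface (0.93), TIPARP (0.81), NFKBIA, the inhibitor of NF-kB (0.71), and RGS2 (0.64). The differences of FKBP5 and TSC22D3 in the same comparison were 0.58 and 0.63. The DOC main effect passed for 10 of the 24 (0.432% of all genes), adding PER1 (0.54), BCL6 (0.54), KLF15 (0.44), ZBTB16 (0.38) and MT1X (0.32). For the interaction 3 passed (0.0880% of all genes), TIPARP (1.18), PDK4 (1.18) and RGS2 (0.69), for which DOC added more in the presence of PMA. This list was chosen with earlier results of these data known. Its counts, here and with PMA, are therefore no test of the list against all genes.

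With PMA 15 of these 24 rose and 3 fell (median 0.41), where 17.7% of all genes rose and 29.3% fell. ZFP36, which destabilises AU-rich mRNAs, rose by 3.82, GADD45B by 3.60, the phosphatase DUSP1 by 2.19 and ERRFI1, an inhibitor of the EGF receptor, by 1.55. The 3 that fell were MT1X (-0.46), KLF15 (-0.36) and ZBTB16 (-0.36), and each of them, like TSC22D3, also passed upward for the DOC main effect. Unlike TSC22D3, KLF15 (means of 4.19 in PMA and 4.55 in vehicle) and ZBTB16 (4.23 and 4.59) were dim. These means lay below the array medians of 4.91 to 4.96. The PMA difference of TSC22D3 was -1.18.

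For the partners of the TSC22D proteins, all 8 genes of the NRBP and WNK kinase pathway listed were tested and 0 passed with DOC (median 0.01). With PMA NRBP2 rose (0.39), and WNK3 (-0.59), OXSR1 (-0.42) and WNK1 (-0.28) fell (median -0.20), which is 4 of 8 and near the 47.0% of all genes. WNK kinases act through OXSR1 on chloride cotransporters of the kidney. Of 5 genes whose proteins GILZ binds, 4 were tested, and with PMA FOS rose by 5.65 and JUN by 0.92 while HRAS fell by 0.20, against 47.0% of all genes passing, and 0 passed with DOC. FOS and JUN, the AP-1 partners, rose in the comparison in which TSC22D3 fell, and a link between them was not tested.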

How the data were processed

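The values were log2 RMA signals of Affymetrix PrimeView arrays, as deposited by the authors. The submitters' processing notes name RMA and Affymetrix Expression Console, with versions not given in the sources used here. Since RMA gives every array 1 common distribution, it hides any shift shared by all transcripts. The table of 16 arrays held 49293 probe sets and 0 columns of other samples. A platform annotation table paired 44988 probe sets with 1 gene, 1832 with several and 2473 with none, and 44961 were matched to a current gene. Probe sets under the 40th percentile of their array in all but 3 or fewer arrays were left out (30613 remained, 28226 with 1 gene). A gene was read through its brightest remaining probe set. No genome build is named for the array, and the promoter coordinates are RefSeq's.

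Means of the 4 groups were fitted with lmFit and eBayes (limma 3.58.1, R 4.3.3), once for 12495 genes and once for the 28226 probe sets, in 7 contrasts with Benjamini-Hochberg adjustment over each whole table. The fit was tested on simulated data. The median standard error was 0.0879 for a difference of 2 groups. The number of arrays limits the precision.

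Genes named were the 5 members, the 3 genes most correlated with each, and, of each list, those past the threshold for DOC, plus up to 4 of the largest for PMA. DNAJA1, HSP90AB1, FKBP15 and FKBPL fall outside this rule and were named, like the markers NEFM, CORO1A and TIE1, after their values were seen. The members and lists were chosen with earlier results of these data known. The replicate numbers were checked for pairing. Deviations of same-numbered PMA and DOC plus PMA arrays correlated at 0.157 to 0.549 in all 4 pairs, which was taken as pairing. No other 2 groups had all 4 pairs above 0.1, although single pairs reached 0.437 (DOC and DOC plus PMA replicate 3). The highest value, 0.549, was that of replicate 2, where both arrays were among the deviating ones. The main fit did not use the pairing, and the block is given as an alternative. Alternatives covered the filter, the probe set of a gene, the scaling, the variance model, array weights, the replicate block and left-out arrays.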

Additional observations from a re-analysis of the deposited data

Results flagged for a closer look

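A lone array stood apart from the other 3 of its group, by Dixon's criterion at the 95% level, in 3 of the 20 sets of 4 arrays looked at. Chance gives about 1 in 20 such sets. FKBP5 was at 10.413 in PMA replicate 2, against 10.13 to 10.15 in the other PMA arrays. TSC22D2 was at 9.14758 in DOC replicate 1, against 8.55 to 8.57 in the other DOC arrays. TSC22D4 was at 5.16334 in DOC plus PMA replicate 3, against 5.01 to 5.03 in the others.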

How the results depend on the processing

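Of 35 gene-level results (5 genes in 7 comparisons), 33 kept their call under every alternative run. The exceptions came from the choice of probe set. DOC against vehicle for TSC22D3 was 0.65 with the mean of its probe sets (adjusted p = 0.0608 by limma) and 0.74 with the second brightest set (adjusted p = 0.646). PMA against vehicle for TSC22D4 was 0.23 with the second brightest set (adjusted p = 0.0313). The cause was not tested. The 3 deviating arrays were picked from these data, so the fits without them, of genes and of probe sets, were chosen after seeing them. The second brightest set, fits of probe sets without PMA replicate 2 and the block over 2 groups were also chosen after seeing the data. TSC22D4 did not pass the 60th percentile filter. The DOC difference of FKBP5 ranged from 0.51 to 0.62 over alternatives, with adjusted p by limma of 9.23e-05 to 0.0446.

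With the replicate number as a block over all 16 arrays, DOC against vehicle was 0.58 for FKBP5 (adjusted p = 0.00194 by limma) and 0.63 for TSC22D3 (adjusted p = 0.00195), and no call changed. With the block over the PMA and DOC plus PMA arrays alone, FKBP5 differed by 0.51 (adjusted p = 0.0134 by limma), with 61 genes passing against 48.

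Array weights gave 89 genes for DOC plus PMA against PMA, 25 against 11 for the interaction and 94 against 54 for the DOC main effect. Leaving out 1 array gave 5 to 14 genes for the interaction, and 31 for DOC plus PMA against PMA without DOC plus PMA replicate 4. Of the genes called with PMA, 37.6% were higher, against 46.5% after cyclic loess.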
